A study of Rattus norvegicus with 20 samples.

Results

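Whether social isolation moved the miRNAs of the anterodorsal part (adBNST) of the bed nucleus of the stria terminalis by a different amount in female and male rats was examined in all 20 small RNA libraries of the series. The quantity described throughout is the housing difference between the sexes (the interaction of housing and sex), that is, the log2 change from group housing to social isolation in females minus the same change in males. A value below 0 therefore marks a miRNA whose change was lower in females than in males. It was computed for each of 500 miRNAs, of 617 with reads, and averaged over the members of miRNA families. The rats were Sprague-Dawley, were weaned on postnatal day 21, and were then kept for 6 weeks either singly (socially isolated, SI) or 3 to a cage with littermates of their own sex (group housed, GH). They were 9 weeks old when tested on the elevated plus maze, after which the adBNST was punched out. Each of the 4 groups, which are the females and the males of either housing, had 5 rats, so every value comes from separate animals. No group carried a transgene or a drug treatment, and by their labels the groups differed only in housing and sex. By the study's account, the sequenced females of each housing were chosen for high RNA integrity and a spread of estradiol levels. It describes no such choice for the males. The labels do not give which rats shared a cage or litter.

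miRNAs are short RNAs that guide Argonaute proteins to messenger RNAs and lower their translation and stability. Pairing is set mainly by the seed near the 5′ end, so miRNAs with the same seed form a family with overlapping targets, while the opposite strand of the same hairpin has another seed and other targets. The BNST is part of the extended amygdala, takes part in sustained anxiety states, and differs in structure between the sexes in rodents.

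The mature miRNAs that carry the results are shown with the seed, bases 2 to 8, in capitals, as RefSeq gives them on the rat assembly GRCr8. The first set shares the miR-34 seed and is shown because one of its members had the largest supported difference between the sexes. miR-34a-5p is encoded at chr5:165815971-165815992 on the + strand, and miR-34b-5p and miR-34c-5p lie close together at chr8:60306657-60306679 and chr8:60306133-60306155 on the − strand. miR-449a-5p is encoded at chr2:46403925-46403946 on the + strand.
miR-34a-5p: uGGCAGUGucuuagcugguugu
miR-34b-5p: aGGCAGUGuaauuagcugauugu
miR-34c-5p: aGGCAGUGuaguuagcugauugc
miR-449a-5p: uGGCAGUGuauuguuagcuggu

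The opposite strands of the miR-34b and miR-34c hairpins share another seed and are shown because both differed in the same direction as miR-34a-5p.
miR-34b-3p: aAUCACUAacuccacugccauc
miR-34c-3p: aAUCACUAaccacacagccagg

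The miR-30 guide strands share the next seed, and they are shown because members of this family with the same seed did not differ alike. miR-30a-5p is encoded at chr9:33233946-33233967 on the + strand, and miR-30e-5p at chr5:139637504-139637525 on the − strand. miR-30c-5p comes from a pair of genes, Mir30c1 at chr5:139634505-139634527 on the − strand and Mir30c2 at chr9:33253695-33253717 on the + strand. The other guide strands of the family measured here were miR-30b-5p and miR-30d-5p.
miR-30a-5p: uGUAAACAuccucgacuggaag
miR-30c-5p: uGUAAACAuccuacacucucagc
miR-30e-5p: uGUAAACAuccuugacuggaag

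The last pair comes from opposite strands of the Mir138-2 hairpin, at chr19:10680184-10680206 and chr19:10680139-10680159 on the − strand, and is shown because the strands differed in opposite directions. miR-138-5p is also encoded by Mir138-1 at chr8:131178456-131178478 on the + strand.
miR-138-5p: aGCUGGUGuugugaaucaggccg
miR-138-2-3p: gCUAUUUCacgacaccagggu

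Levels are log2 normalized read counts, with 1 added to the count scaled to a common library size. The libraries held 3428930 to 11383055 miRNA reads (median 6705043). Some facts about single libraries bear on what follows. The rats numbered I17 in SI males and SI females carry the opposite sex in the names of their deposited files, so the calls and most of the other differences described are also given with these 2 libraries exchanged. The SI female I16F listed only 367 miRNAs and had 59.4% of its reads in its 10 most counted miRNAs. The SI male I20M had 119214 reads of miR-204-5p, a miRNA abundant in the choroid plexus, while the other 19 rats had 3607 to 28422. In bulk tissue such as these punches, fewer cells of a type and less RNA per cell cannot be told apart.

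Few single miRNAs had a housing difference that separated the sexes once all tests were counted. Of 500 miRNAs, 2 passed edgeR's quasi-likelihood test for the difference at a Benjamini-Hochberg adjusted p under 0.05, which is 0.400% of those tested, and both were below 0. They were miR-34a-5p and miR-30b-5p. Without adjustment, 36 miRNAs (7.20%) had a p under 0.05, of which 25 (5.0%) were below 0 and 11 (2.20%) above. The 36 names hold 33 distinct measurements, since some names were assigned identical reads. Each call depended on how the rats numbered I17 were placed. With the 2 libraries exchanged no miRNA passed the adjusted threshold by edgeR or by DESeq2, 33 miRNAs had an unadjusted p under 0.05 by edgeR and 41 by DESeq2, and 21 miRNAs had one under both placements by edgeR. DESeq2, run without the count filter, called 6 of 586 miRNAs (1.02%). These were miR-34a-5p, miR-30b-5p, miR-30c-5p, and 3 miRNAs of low count. In miR-3065-3p and miR-511-3p, which were too scarce for the edgeR test, 4 of the 5 SI males and all 5 GH males had no read. The third, miR-6321, is described with the low counts further on.

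For most miRNAs the sexes moved together. Among the 307 miRNAs with at least 10 reads in every library, 229 changed in the same direction in both sexes and 78 in opposite directions. Of those 78, 42 were lower after isolation in females and higher in males, and 36 were the reverse. The median size of the log2 change was 0.41 in females and 0.47 in males, and the change was larger in males for 149 of the 307. Across these miRNAs, which share the same rats and are not independent, the 2 housing changes had Pearson's r of 0.55 and Spearman's rho of 0.57. The median difference between the sexes was 0.04, with 139 miRNAs below 0 and 168 above. That balance turned with the scaling and the placement of rats, with a median of −0.029 (161 miRNAs below 0) when total reads were the only scaling and −0.0060 (156 below 0) with the I17 libraries exchanged, and it was 0.14 (123 below 0) without I16F.

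**Figure D1:**
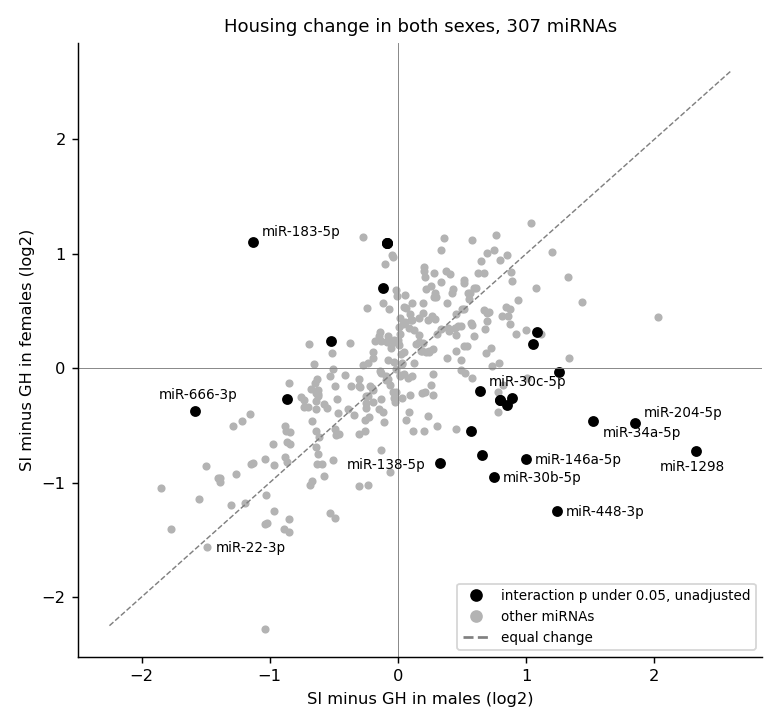
Log2 change from GH to SI in males (x axis) and in females (y axis) for 307 miRNAs with at least 10 reads in every library, each point a miRNA and the dashed line an equal change in both sexes. Black points are the 25 miRNAs with an unadjusted p under 0.05 for the difference between the sexes, and most of them lie to the right of or below the line.

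The precision limits what could be seen. The median standard error of the difference was 0.43, and its 95% interval reached a median of 0.88 to either side. The interval lay wholly between −1 and 1 for 91 of the 307 miRNAs, and wholly between −0.5 and 0.5 for 1 of them. For the other miRNAs the interval reached past a difference of 2-fold between the responses of the sexes.

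The miRNAs with the smallest p-values mostly moved in opposite directions. Among the 307, 25 had an unadjusted p under 0.05 (8.14%), 17 below 0 and 8 above, and these values chose the 25, so what follows describes them. In 15 of the 25 the level was lower after isolation in females and higher in males, in 6 it was the reverse, and in 4 both sexes moved the same way. The change was larger in males in 17 of the 25, with a median size of 0.85 in males and 0.48 in females. The same contrast can be read across the sexes. Of the 17 miRNAs below 0, 16 were higher in females than in males under group housing, and all 17 were lower in females than in males under isolation. Of the 8 miRNAs above 0, 8 were lower in GH females than in GH males, and 5 were higher in SI females than in SI males.

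miR-34a-5p, a transcriptional target of p53 that lowers cell cycle and survival factors and has been studied in stress responses of the amygdala, had the smallest p of all miRNAs tested. Its log2 level was 8.41, 8.26, 7.63, 9.38, and 8.71 in the GH males G16M, G19M, G18M, G20M, and G21M, and 10.05, 10.11, 9.94, 9.94, and 10.47 in the SI males I15M, I19M, I22M, I17M, and I20M. It was 9.14, 9.09, 9.92, 8.85, and 9.83 in the GH females G15F, G12F, G16F, G13F, and G17F, and 8.92, 8.72, 9.56, 8.60, and 8.83 in the SI females I14F, I10F, I17F, I12F, and I16F. By the labels every SI male lay above every other rat, the lowest at 9.94 against 9.92 in G16F, whereas SI and GH females overlapped. With the I17 libraries exchanged, I17F at 9.56 lay above every GH male but below the GH females G16F and G17F. The means of males were 8.48 ± 0.64 under GH and 10.10 ± 0.22 under SI, and those of females 9.37 ± 0.48 and 8.93 ± 0.37 (SD, n = 5 each). miR-34a-5p rose with isolation in males by 1.52 on the log2 scale (standard error 0.31, edgeR adjusted p = 0.0070), and that call was kept with the I17 libraries exchanged (edgeR adjusted p = 0.022) and whichever of the 20 rats was left out. In females its log2 change was −0.46 (standard error 0.30, edgeR adjusted p = 0.42). For reference, 20 of 500 miRNAs (4.0%) passed the edgeR test of housing in males and 2 (0.400%) in females. The study reported more miRNAs in females than in males, by DESeq2 at the same adjusted threshold. Whether the tool has a part in the unlike counts was not tested.

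The difference between the sexes for miR-34a-5p was −1.99 (standard error 0.43, 95% interval −2.88 to −1.09, edgeR adjusted p = 0.041, from 120 to 1743 reads per rat). With the I17 libraries exchanged it was −1.80 (unadjusted p = 0.00082, edgeR adjusted p = 0.41), and with both left out it was −2.20 (edgeR adjusted p = 0.041). Without I20M it was −1.80 with an adjusted p of 0.15 by edgeR. Leaving out 1 rat at a time, the value ran from −2.27 to −1.80, and the call was kept in 5 of the 20 fits and lost in 15, with adjusted p between 0.0084 and 0.15. The direction of miR-34a-5p thus did not rest on a single rat, whereas its adjusted p stood near the threshold and was 0.059 with the size factors of DESeq2, 0.056 with total reads as the only scaling, and 0.070 with 1 surrogate variable in edgeR. Reads of the exact reference sequence gave −2.07 as the difference of group means, reads that extend or shorten the 3′ end along the hairpin gave −2.13, and reads with bases added at the 3′ end gave −3.02.

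miR-30b-5p, a guide strand of the miR-30 family whose members are abundant in brain, was the other call. Its log2 level was 10.23, 9.80, 9.62, 10.14, and 10.17 in GH males and 10.39, 11.10, 11.04, 10.64, and 10.46 in SI males, with the rats in the order given above. It was 10.26, 10.30, 11.54, 10.22, and 11.01 in GH females and 9.79, 10.12, 9.63, 9.40, and 10.05 in SI females. By the labels the housing groups did not overlap in either sex, with every SI male above the GH males and every SI female below the GH females. With the I17 libraries exchanged they overlapped in both sexes, since I17F was at 9.63 and I17M at 10.64. The change was 0.75 in males (edgeR adjusted p = 0.097) and −0.95 in females (edgeR adjusted p = 0.084), so neither change passed the test alone while their difference did. That difference was −1.69 (standard error 0.38, 95% interval −2.47 to −0.91, edgeR adjusted p = 0.041, from 481 to 2896 reads per rat). With the I17 libraries exchanged it was −1.32 (unadjusted p = 0.0060, edgeR adjusted p = 0.43), and with both left out −1.65 (edgeR adjusted p = 0.17). With each rat left out in turn it ran from −1.80 to −1.41 and kept its call in 3 of the 20 fits, and the 3 settings of scaling and surrogate variable that ended the call of miR-34a-5p ended this call too (edgeR adjusted p = 0.059, 0.058, and 0.070).

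miR-30c-5p, with the same seed and far more reads (18136 to 93827 per rat), moved in a like manner by a smaller amount. Its log2 level was 15.15, 14.86, 14.99, 15.23, and 15.09 in GH males, and 15.80, 15.89, 15.76, 15.40, and 15.63 in SI males. It was 15.13, 15.17, 15.62, 15.50, and 15.32 in GH females, and 15.20, 15.20, 15.08, 15.14, and 15.16 in SI females. By the labels the males of the 2 housings did not overlap, while the SI females lay in a narrow band at the lower end of the GH females. Neither held with the I17 libraries exchanged, which put I17F at 15.08 among the males and I17M at 15.40 among the females. The change was 0.64 in males (standard error 0.15, edgeR adjusted p = 0.015) and −0.20 in females (standard error 0.15, edgeR adjusted p = 0.50). The call in males was lost with the I17 libraries exchanged (edgeR adjusted p = 0.058) and without G18M, G19M, I15M, or I20M (adjusted p up to 0.058). The difference of −0.84 (standard error 0.21, 95% interval −1.29 to −0.40) had an adjusted p of 0.11 by edgeR, 0.0022 by DESeq2, and 0.029 by limma voom. With the I17 libraries exchanged it was −0.73. All 5 classes of miR-30c-5p reads, sorted by how they depart from the reference sequence, differed in the same direction, from −1.06 to −0.79.

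**Figure D2:**
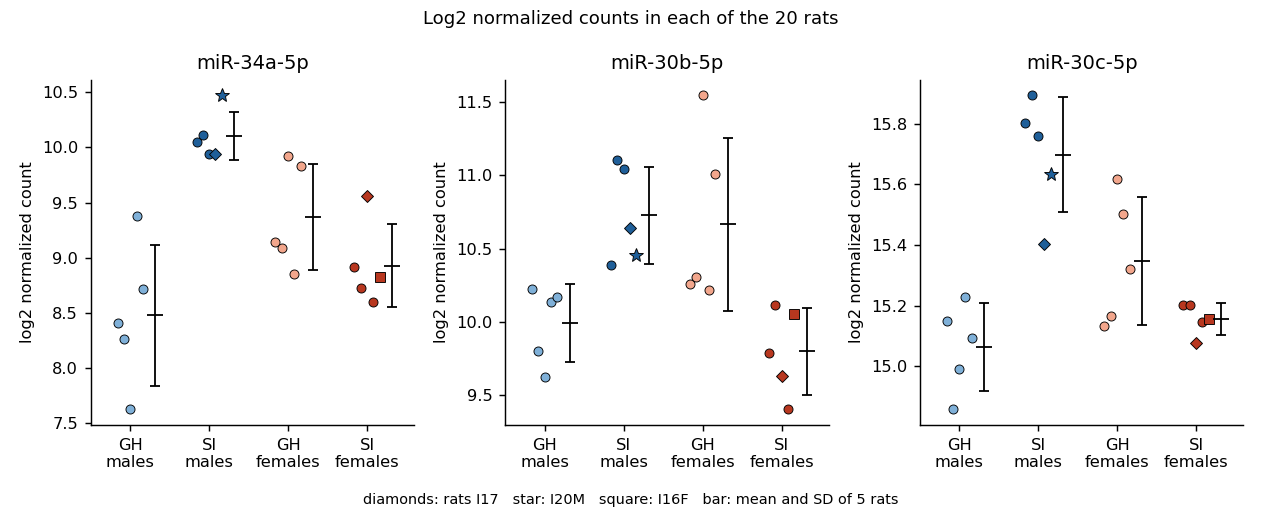
Log2 normalized read counts (y axis) of miR-34a-5p, miR-30b-5p, and miR-30c-5p for each rat in the 4 groups of housing and sex (x axis), with the group mean and SD of 5 rats. Diamonds are the rats numbered I17, the star is I20M, and the square is I16F. By the labels every SI male lies above every GH male in all 3 panels.

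The remaining miR-30 guide strands did not share this pattern although they share the seed. The difference between the sexes was 0.21 for miR-30a-5p (95% interval −0.63 to 1.05), 0.01 for miR-30d-5p (−0.71 to 0.73), and 0.02 for miR-30e-5p (−0.99 to 1.02). miR-30a-5p and miR-30e-5p had log2 changes below 0 in both sexes, −0.46 and −1.18 in females and −0.67 and −1.19 in males. The reads of all 6 miRNAs with this seed, miR-384-5p included, differed by −0.12 when added together (95% interval −0.76 to 0.53). The mean over the 5 guide strands was −0.46, −0.45 with the I17 libraries exchanged, and −0.27 without I16F. The opposite strands had wide errors, at −0.86 ± 0.85 for miR-30b-3p, 0.42 ± 0.65 for miR-30c-1-3p, and −0.30 ± 0.30 for miR-30c-2-3p (standard errors).

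In the miR-34 family, 3 of 6 measured strands had an unadjusted p under 0.05, and all 3 were below 0, where 36 of all 500 miRNAs (7.20%) had such a p. The family was chosen with the value of miR-34a-5p known, so the count describes it and supports nothing. Both strands of this kind besides miR-34a-5p were the opposite strands miR-34b-3p and miR-34c-3p. The log2 level of miR-34b-3p was 11.67, 11.58, 9.996, 11.29, and 11.33 in GH males and 12.17, 12.34, 11.71, 12.61, and 13.31 in SI males. In GH females it was 11.93, 11.25, 12.06, 12.12, and 12.45, and in SI females 11.00, 11.52, 12.66, 10.87, and 12.75. The males did not overlap between housings and the females did. The difference between the sexes was −1.29 for miR-34b-3p (standard error 0.53, edgeR unadjusted p = 0.023) and −1.42 for miR-34c-3p (standard error 0.64, edgeR unadjusted p = 0.037). With the I17 libraries exchanged the values were −1.31 and −1.43. Added together these strands differed by −1.34 (edgeR unadjusted p = 0.021).

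The guide strand miR-34c-5p had a log2 change of −1.31 in females and −0.49 in males, and its difference of −0.82 (95% interval −2.15 to 0.51) did not pass at the unadjusted level. Exchanging the I17 libraries made it −1.24 (unadjusted p = 0.057). miR-34b-5p and miR-449a-5p were scarce, with intervals of −5.07 to 3.56 and −3.07 to 6.54. The mean over the 4 strands with at least 10 reads in every library was −1.38, −1.45 with the I17 libraries exchanged, and −0.97 without I20M. That rat weighed on the strands of Mir34b and Mir34c more than on miR-34a-5p. Without it the differences were −0.93 for miR-34b-3p (unadjusted p = 0.084), −0.97 for miR-34c-3p (unadjusted p = 0.14), and −0.19 for miR-34c-5p.

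**Figure D3:**
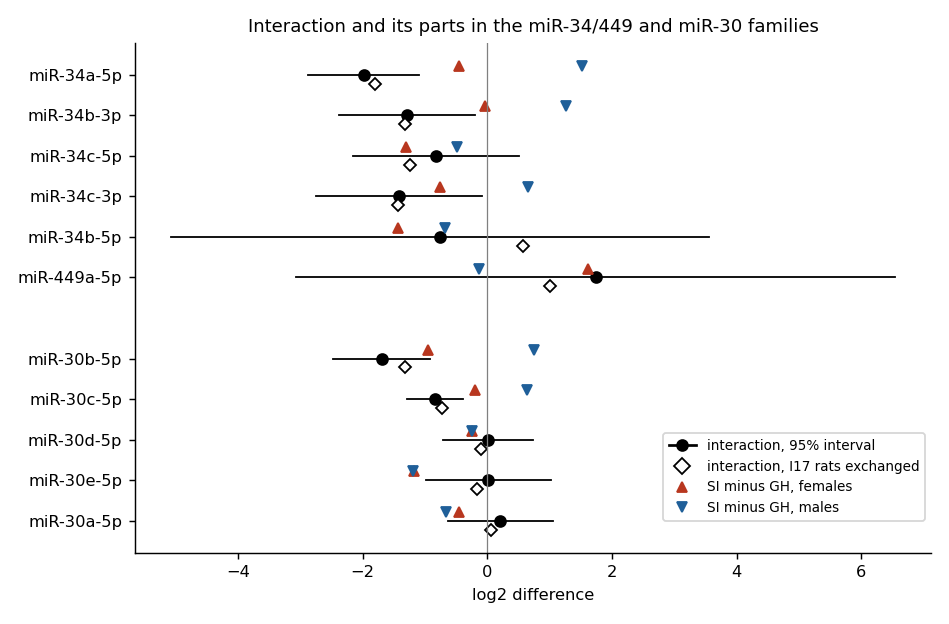
Housing difference between the sexes on the log2 scale with its 95% interval (black) for 6 strands of the miR-34 and miR-449 family and 5 miR-30 guide strands, with the value after exchanging the I17 libraries (open diamonds) and the housing change in females (red, pointing up) and males (blue, pointing down). The intervals of miR-34a-5p, miR-34b-3p, miR-34c-3p, miR-30b-5p, and miR-30c-5p lie below 0, and miR-30a-5p, miR-30d-5p, and miR-30e-5p lie close to 0.

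miR-204-5p, known from the choroid plexus, had a large difference that 1 rat carried. The log2 level of miR-204-5p was 13.003, 12.86, 12.73, 13.23, and 16.83 in SI males, the last being I20M, and 12.98, 13.93, 12.53, 12.39, and 12.62 in GH males. It was 13.71, 12.92, 13.23, 13.56, and 15.03 in GH females and 12.62, 13.08, 14.66, 12.38, and 13.06 in SI females. I20M thus lay well above every other rat, followed by G17F and I17F. The difference between the sexes was −2.32 (edgeR unadjusted p = 0.023), −2.99 with the I17 libraries exchanged (unadjusted p = 0.0019), and −0.35 without I20M (unadjusted p = 0.57). The same held for miR-448-3p and miR-1298, whose hairpins lie in the gene of the serotonin receptor Htr2c and which were chosen after their values were seen. Their differences were −2.48 and −3.05, −2.68 and −3.99 with the I17 libraries exchanged, and −0.27 and 0.39 without I20M. Of 7 miRNAs listed for choroid plexus and epithelium 4 were tested, and miR-200a-3p, miR-141-3p, and miR-429 were too scarce. Besides miR-204-5p, miR-211-5p was at −2.26 (edgeR unadjusted p = 0.17) and at −0.78 without I20M. miR-200c-3p was at −1.06 (edgeR unadjusted p = 0.40), and miR-200b-3p went the other way, at 2.66 (edgeR unadjusted p = 0.18). The summed level of the list, in reads per 1000000 of the TMM-scaled library (CPM), ran from 1075 to 18230 in SI males and did not pass 2455 in GH males, 5245 in GH females, or 4084 in SI females, with lowest values of 848, 1222, and 847. Whether this list has a part in the values of the miR-34b and miR-34c strands was not tested beyond leaving out I20M.

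**Figure D4:**
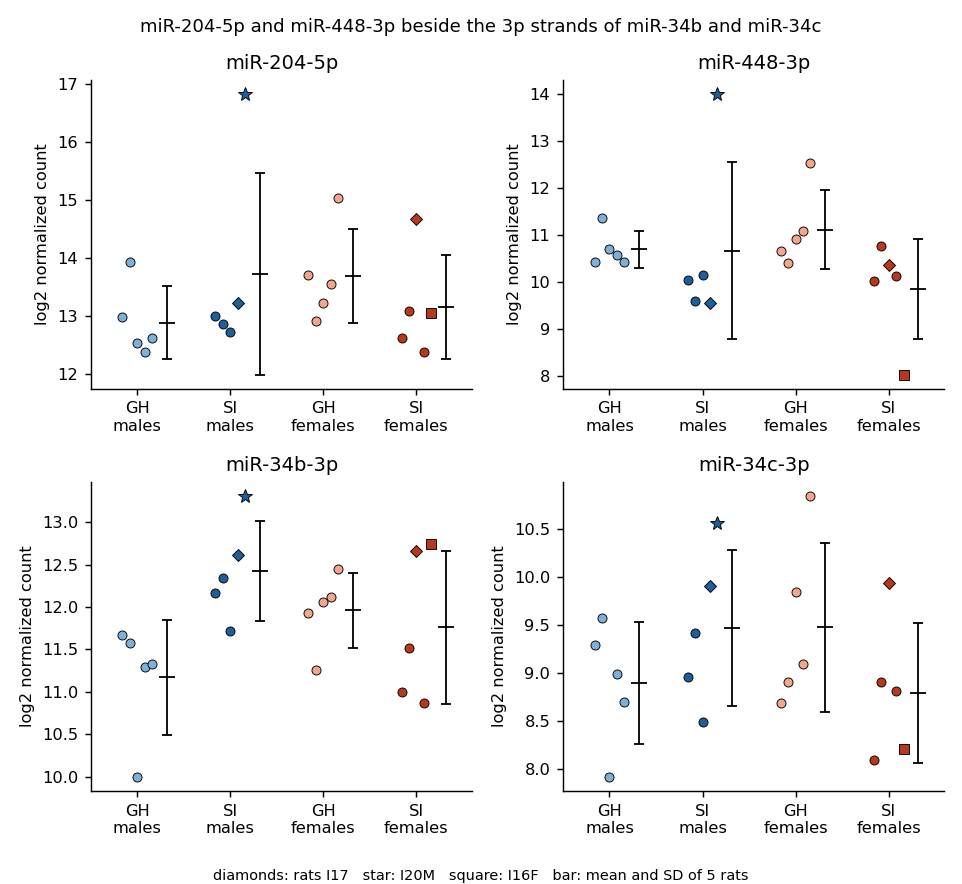
Log2 normalized read counts (y axis) of miR-204-5p, miR-448-3p, miR-34b-3p, and miR-34c-3p for each rat in the 4 groups (x axis), with the group mean and SD of 5 rats. The star, the SI male I20M, is the highest of all rats for miR-204-5p at 16.83 and for miR-448-3p at 14.01.

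Several more miRNAs had a difference below 0 at the unadjusted level. miR-146a-5p, which dampens NF-kB signaling and is strongly expressed by microglia, had a log2 change of 0.995 in males and −0.79 in females. Its level was 7.80, 8.84, 8.84, 8.73, and 9.15 in GH males, 9.90, 9.59, 9.54, 8.21, and 10.54 in SI males, 8.44, 9.16, 9.55, 8.25, and 9.07 in GH females, and 7.94, 8.85, 8.55, 8.15, and 6.42 in SI females. The groups overlapped in both sexes, with the SI male I20M highest and the SI female I16F lowest. The difference was −1.79 (standard error 0.58, edgeR unadjusted p = 0.0052, edgeR adjusted p = 0.46), −1.89 with the I17 libraries exchanged, and −1.39 without I20M. It was 1 of 5 microglial miRNAs with an unadjusted p under 0.05 (7.20% of all miRNAs), and the other 4, miR-142-3p, miR-142-5p, miR-155-5p, and miR-223-3p, had values of −1.42, −1.30, −0.81, and −1.80 with larger errors. The summed level of the 5 lay between 81.5 and 141.7 CPM in GH males and between 82.2 and 328.6 in SI males, and for females it lay between 84.7 and 184.6 in GH and between 44.2 and 107.5 in SI. Whether a change in the number of microglia has a part in the value of miR-146a-5p was not tested.

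miR-374-5p, encoded on the X chromosome, differed by −1.17 (edgeR unadjusted p = 0.0046, edgeR adjusted p = 0.46), and by −0.83 with the I17 libraries exchanged (unadjusted p = 0.048). Its log2 change was 0.85 in males and −0.32 in females, and under GH its level was 8.72 to 9.60 in males against 9.28 to 10.35 in females. Its opposite strand miR-374-3p was at 0.93 with an interval from −1.02 to 2.87. miR-378a-3p, which lies within the Ppargc1b gene and bears on lipid and mitochondrial metabolism, rose in SI males by 1.05 (edgeR adjusted p = 0.0070) and had a log2 change of 0.21 in females. The SI males lay at 13.14 to 14.28, above the GH males at 12.36 to 12.79, while the females overlapped. The difference of miR-378a-3p was −0.84 (edgeR unadjusted p = 0.0076), −0.77 with the I17 libraries exchanged, and −0.51 without I20M. miR-221-3p, abundant in vessels and proliferating cells, rose in males by 1.09 (edgeR adjusted p = 0.013, and up to 0.053 without G16M, G18M, or I15M) with a log2 change of 0.32 in females, and its difference was −0.77 (edgeR unadjusted p = 0.040), or −0.68 with the I17 libraries exchanged (unadjusted p = 0.078). miR-190a-5p, which had 2 to 452 reads per rat, differed by −2.70 with a standard error of 0.997.

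The strands encoded by the Mir138-2 hairpin went in opposite directions. Because Mir138-1 encodes the same miR-138-5p sequence, reads of miR-138-5p cannot be assigned to Mir138-2 alone, unlike those of miR-138-2-3p. miR-138-5p, which limits the size of dendritic spines, was at 10.01, 9.85, 10.31, 10.62, and 10.54 in GH females and at 9.69, 9.32, 9.13, 9.41, and 9.68 in SI females. miR-138-2-3p was at 9.67, 9.91, 9.43, 9.99, and 9.97 in GH females and at 10.54, 10.02, 10.81, 10.59, and 10.50 in SI females. By the labels every SI female lay below the GH females for miR-138-5p and above them for miR-138-2-3p, whereas the males of the 2 housings overlapped for both strands. With the I17 libraries exchanged the females overlapped for miR-138-5p, since I17M was at 9.98. The log2 change in females was −0.83 for miR-138-5p (edgeR adjusted p = 0.10) and 0.70 for miR-138-2-3p (edgeR adjusted p = 0.084), against 0.33 and −0.12 in males. The differences between the sexes were −1.16 (standard error 0.39, edgeR unadjusted p = 0.0065) and 0.82 (standard error 0.31, edgeR unadjusted p = 0.014). With the I17 libraries exchanged they were −0.87 (edgeR unadjusted p = 0.0504) and 0.47 (edgeR unadjusted p = 0.19), so neither passed at the unadjusted level. The other passenger strand, miR-138-1-3p, differed by 0.26 (95% interval −0.61 to 1.13).

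Among the miRNAs with a difference above 0, the male change was again the larger in some and the female change in others. miR-666-3p, of the large imprinted miRNA cluster on chromosome 6, fell with isolation in males by 1.59 (edgeR adjusted p = 0.0070, and 0.056 with the I17 libraries exchanged), where its log2 level ran from 9.53 to 10.18 in GH and from 7.62 to 8.88 in SI. In females, at 9.24 to 10.15 in GH and 8.56 to 10.16 in SI, the change was −0.38. The difference of 1.21 (standard error 0.44, edgeR unadjusted p = 0.012) was 0.77 with the I17 libraries exchanged (unadjusted p = 0.14). The difference of its opposite strand miR-666-5p was 0.63. miR-423-3p likewise fell in males, by 0.87 (edgeR adjusted p = 0.011, and 0.061 with the I17 libraries exchanged), with a change of −0.27 in females. Its difference of 0.60 (edgeR unadjusted p = 0.037) was 0.39 with the I17 libraries exchanged (unadjusted p = 0.21) and 0.48 without G19M (unadjusted p = 0.093). miR-125b-2-3p had changes of −0.52 in males and 0.24 in females and a difference of 0.76 (edgeR unadjusted p = 0.019), which was 0.65 with the I17 libraries exchanged (unadjusted p = 0.051). miR-125b-5p, the guide strand of that hairpin, was at −0.10 (95% interval −0.53 to 0.33).

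miR-3084a-3p had log2 changes of 1.09 in females and −0.08 in males, and a difference of 1.18 (standard error 0.55, edgeR unadjusted p = 0.044), or 1.06 with the I17 libraries exchanged (unadjusted p = 0.067). It was at 6.16 to 6.66 in GH females and at 6.36 to 7.86 in SI females. In males it was at 7.24 to 8.52 in GH and at 7.13 to 8.57 in SI, so the GH females lay below the males of both housings. miR-183-5p, of a cluster known from sensory organs, had the largest value above 0 among miRNAs with 10 reads in every library, at 2.24 (standard error 0.90, edgeR unadjusted p = 0.021). It rested in part on single rats, namely the GH males G16M at 9.14 and G19M at 8.52, against 5.94 to 6.61 in the other GH males, and the SI female I12F at 8.82, against 6.15 to 7.01 in the other SI females. The difference was 2.25 with the I17 libraries exchanged, 1.60 without G16M, and 1.54 without I12F.

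Some differences came from miRNAs with few reads. In 8 of the 36 miRNAs with an unadjusted p under 0.05, all 5 rats of a group had no reads. No fold is given for them here, and the values of such miRNAs in the closing section serve only to give a sign. miR-6321 had 0, 63, 0, 304, and 351 reads in GH males, none in any SI male, up to 202 in 3 GH females and none in G16F and G17F, and 0, 0, 408, 258, and 0 in SI females. Since the 408 reads were those of I17F, exchanging the I17 libraries put reads among the SI males. miR-3550 had 73, 58, 32, 0, and 17 reads in SI males and none in any SI female, with 0 to 11 in GH males and 0 to 18 in GH females. let-7a-2-3p, the passenger strand of a let-7 gene, had no reads in any SI female and 87 in I17M. miR-216a-5p, miR-3541, and miR-32-5p had no reads in any SI male, and at most 46, 91, and 72 in the other rats. Of these, miR-32-5p had an edgeR unadjusted p of 0.057 and is not among the 36. At these counts the absence of reads does not show the absence of the miRNA.

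miR-22-3p, which is broadly expressed in neurons and muscle, fell by 1.56 in females and by 1.49 in males (edgeR adjusted p = 0.0052 and 0.0070), and the difference between these was −0.07 (95% interval −0.87 to 0.72). miR-338-5p, abundant in oligodendrocytes, had values of 0.70 in females (edgeR adjusted p = 0.10) and 1.08 in males (edgeR adjusted p = 0.011) and a difference of −0.38 (95% interval −1.06 to 0.30). miR-341 had values of −0.99 (edgeR adjusted p = 0.093) and −1.39 (edgeR adjusted p = 0.013, and up to 0.053 without G16M, G18M, or I15M) and a difference of 0.40 (95% interval −0.53 to 1.33). The difference was best bounded for abundant miRNAs, at −0.08 for miR-191a-5p (95% interval −0.55 to 0.39), −0.27 for miR-23b-3p (−0.70 to 0.16), and −0.13 for miR-7b (−0.60 to 0.34), as well as for miR-125b-5p. Of the miRNAs that had been measured by a further method, none had a supported difference, with miR-34c-5p given above, miR-760-3p at 0.70 (95% interval −0.18 to 1.57), miR-770-3p at 0.47 (−0.23 to 1.17), and miR-140-5p at −1.39 (−3.56 to 0.78).

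Averaged over families, the differences were small where many members were measured. The means that follow take members with at least 10 reads in every library, are descriptions of lists chosen with results of these data known, and carry no test. The 41 members of the miR-379 to miR-410 cluster had a mean of 0.21 (0.17 with the I17 libraries exchanged), and the 18 of the neighboring cluster with miR-127, miR-433, and miR-770 a mean of 0.26 (0.20). The 9 let-7 guide strands had a mean of 0.13 (−0.01 exchanged). For miR-9 and miR-124 (4) it was 0.39 (0.22 exchanged), and for miR-99, miR-100, and miR-125 (9) it was 0.28 (0.18 exchanged). On the other side were the microglial and neuroimmune list (6) at −0.52, miR-221 and miR-222 (3) at −0.44, the let-7 passenger strands (7) at −0.36, miR-23/27/24 (6) at −0.30, and the brain-enriched synaptic list (14) at −0.28. With the I17 libraries exchanged these means were, in the same order, −0.53, −0.47, −0.25, −0.32, and −0.33. Both strands of miR-204 gave a mean of −1.96, and −0.093 without I20M. Single libraries moved several of these means by over 1.5 times. Without I16F the mean was −0.073 for miR-23/27/24, −0.16 for the synaptic list, 0.63 for miR-9 and miR-124, 0.34 for the miR-379 to miR-410 cluster, and 0.0070 for the let-7 guide strands, which also moved by over 1.5 times without other rats and ran up to 0.32 without I10F. Without I20M it was −0.33 for the microglial list and −0.14 for miR-23/27/24, and for the let-7 passenger strands it was −0.21 without I17M and −0.24 without G19M. Over all 307 miRNAs the median was 0.04. Only the miR-34 and miR-204 means exceeded 1 in size among families with more than 1 such member, and both moved toward 0 without I20M.

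**Figure D5:**
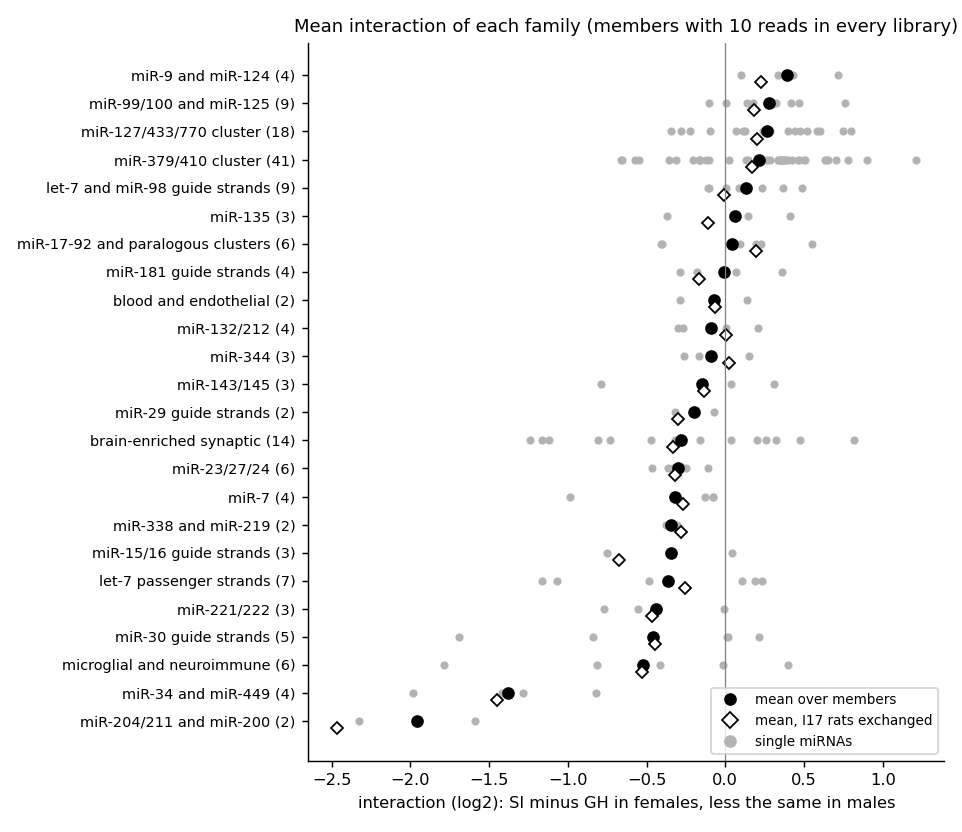
Mean housing difference between the sexes on the log2 scale (x axis) for each family with at least 2 members that had 10 reads in every library (number of members in parentheses). Filled points are means by the labels, open diamonds are means with the I17 libraries exchanged, and grey points are single miRNAs. The miR-204 and miR-34 families lie farthest from 0.

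When reads were summed by seed, none of 403 seeds passed edgeR's adjusted threshold and 26 (6.45%) had an unadjusted p under 0.05. DESeq2 called 3 seeds. The 4 miRNAs with the miR-34 seed, added together, differed by −1.14 (edgeR unadjusted p = 0.055), or by −1.40 with the I17 libraries exchanged (unadjusted p = 0.016), a sum in which miR-34c-5p counts beside miR-34a-5p. miRNAs encoded on the X chromosome and nowhere else had a median difference of −0.21 over all 53 tested, against 0.02 elsewhere, which is given without a test.

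Markers of the cell types that a punch could hold were present in every group. Neuronal miRNAs made up 82240 to 186900 CPM, and none of 3 had an unadjusted p under 0.05 for the difference between the sexes. The same was true of 3 oligodendrocyte, 2 mural, 2 endothelial, and 2 endocrine miRNAs. Among 3 erythroid miRNAs, miR-144-3p had an unadjusted p of 0.029 and was without reads in several rats, whereas miR-451-5p and miR-486 were at −1.26 and 0.14.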

How the data were processed

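adBNST libraries of small RNA came from 20 rats (215 ng of RNA, 22 PCR cycles). The authors removed adapters by cutadapt, merged identical reads, and mapped these by seqbuster to rat hairpins of miRBase v21 (tool versions are not given in the sources used here). The deposited values are raw read counts per distinct sequence and library, each at least 2. Sequences seen once are therefore absent, and reads carry no molecular identifiers, so depth covers counting error only.

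Counts were summed to miRNAs, a read that matched several being counted for each. miRNAs with at least 10 counts in at least 5 libraries were kept, normalized with TMM, and fitted in 1 model with the 4 groups by edgeR 4.0.16 (quasi-likelihood F test, two-sided, R 4.3.3). Standard errors were derived from the F statistic and 95% intervals from the t distribution of the same fit. Adjustment was by Benjamini-Hochberg across the miRNAs tested in a contrast. Log2 levels are counts over the effective library size, times its mean, plus 1. Sequences, chromosomes, and positions are from RefSeq on GRCr8, matched by name for 76 of the 83 miRNAs tabulated by rat. DESeq2 1.42.0, limma 3.58.1, and sva 3.50.0 served alternatives, and tables and plots used Python 3.11.15. The scripts were tested on simulated counts.

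Of 40 pairs of libraries within groups, none was a copy of another (lowest chi-square per degree of freedom 139). Samples were grouped by their labels, and the I17 libraries were exchanged as an alternative.

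Members and lists were chosen with earlier results of these data known. Named miRNAs were those past the threshold, the 10 with the lowest unadjusted p in each direction, their opposite strands, the 3 with the lowest p of the mean housing effect, those that the study measured a further way, the member of each family with the largest difference, and the 5 with the narrowest intervals. Other members of the miR-34 and miR-30 families, the marker lists, and the miRNAs high in I20M were added to these. Alternatives were other scalings, tools, and filters, 1 surrogate variable, reads of a single miRNA or without a mismatch, each rat left out, and a block of shared animal numbers. Leaving out both I17 libraries and DESeq2 with these exchanged were chosen after seeing the data.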

Additional observations from a re-analysis of the deposited data

Results flagged for a closer look

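By the labels, the difference between the sexes passed edgeR's adjusted threshold for miR-34a-5p, at −1.99, and for miR-30b-5p, at −1.69. These are the results that passed a test of that difference itself. With the I17 libraries exchanged neither passed (edgeR adjusted p = 0.41 and 0.43). With 1 rat left out at a time the calls were lost in 15 and 17 of the 20 fits.

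The remaining results are single rats that stood apart from the other 4 of their group by Dixon's criterion (the gap to the next rat over 0.71 of the range of 5). Of 248 groups examined over 64 named miRNAs, 35 had such a rat, from 15 rats. In 23 of the 35 the rat or its neighbor had no reads, and in 7 of these the other 4 rats all had none, so that any read met the criterion. The rate of about 1 in 20 that chance gives holds for values spread as a normal distribution, and the count of 35 cannot be set against it. All values are log2 normalized counts, in which 0 stands for no reads.

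In SI males, I20M was at 12.25 for miR-34c-5p against 10.74 for the next rat. I17M, also an SI male, was at 0 for miR-15a-5p, miR-22-5p, miR-32-3p, miR-3550, and miR-673-5p, each of which had reads in the other SI males, and was at 6.76 for miR-181c-5p against 8.40. I22M was at 0 for miR-3084a-5p.

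In SI females, I16F was at 0 for miR-140-5p, miR-153-5p, and miR-374-3p and at 4.74 for miR-29b-3p, against 9.95 for the next rat, and this library had the fewest miRNAs listed. I14F was at 3.98 for miR-100-3p and 5.53 for miR-223-3p, where the others had no reads, and at 16.24 for miR-7b against 16.04. I17F was at 4.63 for miR-144-3p and I10F at 3.76 for miR-344g, again against no reads in the others. I10F was also at 6.36 for miR-3084a-3p against 7.64.

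In GH males, G19M was at 10.35 for miR-138-2-3p against 9.92, at 5.65 for miR-140-5p against 7.45, at 2.10 for miR-190a-5p against 5.71, and at 0 for let-7a-2-3p, miR-3084a-5p, and miR-378a-5p. G18M was at 13.76 for miR-125b-2-3p against 13.53, at 3.20 for miR-9b-3p against 5.15, and at 0 for miR-223-3p. G20M was at 15.52 for miR-191a-5p against 15.34, and at 1.72 for miR-143-5p and 2.27 for miR-144-3p, where the others had no reads. G21M was at 1.36 for miR-100-3p, again against no reads, and G16M at 0 for miR-344g.

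In GH females, G12F was at 0 for miR-23b-5p, G15F at 0 for miR-378a-5p, and G16F at 9.23 for miR-341 against 10.12.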

How the results depend on the processing

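The number of miRNAs past the threshold, 2 as reported, was 0 with DESeq2's size factors, with total reads as the only scaling, with 1 surrogate variable, and with the I17 libraries exchanged in edgeR or DESeq2 (38, 37, 66, 33, and 41 miRNAs at an unadjusted p under 0.05). It was 1 with both I17 libraries left out, 6 by DESeq2, and 0 to 2 with each rat left out. Without a count filter, with reads of a single miRNA, and without mismatched reads it stayed at 2, and it was 3 by limma voom and with at least 10 counts in every library. Seeds past the threshold were 0 in every setting but DESeq2, which gave 3. miR-34a-5p and miR-30b-5p stayed below 0 under all alternatives run, and the cause of the lost calls was not tested.

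Animal numbers occur in both housings for some rats of each sex. The replicate block over these rats gave 0 miRNAs past the threshold (14 at an unadjusted p under 0.05), and the same rats without the block also 0 (30). With the block the difference was −2.10 for miR-34a-5p and −2.09 for miR-30b-5p. Same-numbered rats did not deviate together (correlations from −0.30 to 0.09), so the numbers were not taken as pairs.

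Exchanging the I17 libraries changed the sign of 84 of the 500 miRNAs tested, and of 45 of the 307 with 10 reads in every library. Among the named miRNAs, the direction turned only in those not called in edgeR. With the I17 libraries exchanged it turned to 1.59 for let-7a-2-3p, −0.0061 for let-7a-5p, −0.58 for miR-3084a-5p, −2.30 for miR-32-5p, −1.23 for miR-378a-5p, and −0.48 for miR-6321, and in DESeq2 to 1.63 for let-7a-2-3p, −0.60 for miR-3084a-5p, −2.44 for miR-32-5p, −1.14 for miR-378a-5p, and −0.49 for miR-6321, which DESeq2 had called by the labels. By the labels let-7a-2-3p, miR-32-5p, and miR-6321 each had a group without reads, so the size of their values has no meaning. Without both I17 libraries the direction turned to −1.22 for miR-3084a-5p and −0.060 for miR-378a-5p. With 1 surrogate variable it turned to −0.35 for let-7a-5p, −0.050 for miR-138-1-3p, 0.065 for miR-191a-5p, 0.22 for miR-219a-5p, 0.18 for miR-22-3p, 0.26 for miR-29b-3p, and −0.022 for miR-32-3p. By limma voom it turned to −0.14 for let-7a-5p, −0.074 for miR-138-1-3p, 0.094 for miR-22-3p, −0.41 for miR-32-5p, and −2.32 for miR-378a-5p. With the block it turned to 0.15 for miR-125b-5p, −1.23 for miR-181c-5p, −4.55 for miR-3084a-5p, 0.071 for miR-30c-2-3p, −0.11 for miR-341, −0.52 for miR-374-3p, −1.63 for miR-378a-5p, and −2.46 for miR-9b-3p. Those rats fitted with no block gave turned values of 0.15 for miR-125b-5p, −1.03 for miR-181c-5p, −0.82 for miR-3084a-5p, 0.029 for miR-30c-2-3p, and −0.24 for miR-341. With each rat left out, the value crossed 0 for let-7a-5p (−0.13 to 0.32), miR-191a-5p (−0.13 to 0.071), miR-22-3p (−0.26 to 0.19), miR-222-5p (−2.32 to 0.47), miR-29b-3p (−0.64 to 0.052), and miR-3084a-5p (−1.18 to 1.07).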
